A study of Mus musculus with 9 samples.

Results

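The members of the BCL2 family described here were 10 genes of 25239 gene symbols counted by RNA-seq in mouse embryonic stem cells: *Bcl2*, *Bcl2l1*, *Bcl2l10*, *Mcl1*, *Bak1*, *Bcl2l11*, *Bid*, *Bad*, *Bmf*, and *Bik*. The family was chosen by the counts of *Bcl2l10*, which had almost no reads in control cells and many more in both *Rbbp4* mutant lines, so its values in these comparisons are given as a description without a test. The study compared E14 control cells (genotype Rbbp4+/+) with 2 lines made by CRISPR-Cas9, with 3 libraries per line and 9 in all. E14 is a line of mouse embryonic stem cells, its strain is labelled 12910la, and every line grew without further treatment in medium with fetal bovine serum and leukemia inhibitory factor. The Rbbp4Ins/Ins line (Ins/Ins) carries a small in-frame insertion on both alleles of *Rbbp4*, and the Rbbp4Ins/Del line (Ins/Del) carries the insertion on one allele and an in-frame deletion on the other. RBBP4 is a histone-binding subunit of several chromatin complexes, among them PRC2 and histone deacetylase complexes. Each mutant line is 1 clone that was viable with altered RBBP4, so the mutation and the clone cannot be told apart. All comparisons with control use the same 3 control libraries, and nothing in the sources used here says whether the 3 libraries of a line came from separate cultures, so the p-values measure the spread between these libraries.

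BCL2 proteins decide whether the outer mitochondrial membrane is opened during apoptosis. Pro-survival members (BCL2, BCL-XL from *Bcl2l1*, and MCL1) hold the effectors BAK and BAX in check, the effectors form pores that release cytochrome c, and BH3-only members (BIM from *Bcl2l11*, BID, BAD, BMF, and BIK) bind the pro-survival members or activate the effectors. *Bcl2l10*, also called Diva or Boo, is grouped with the pro-survival members by sequence and is known for its expression in oocytes, although both survival and death roles have been described for the mouse protein. Pluripotent cells are known to depend on MCL1 and BCL-XL for survival and to respond readily to apoptotic stimuli.

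Library totals lay between 15838064 and 21366868 counted reads. *Rbbp4*, the targeted gene, had 9932 to 10117 normalized counts in control, 5485 to 5776 in Ins/Ins, and 10129 to 10603 in Ins/Del, where a normalized count is a count scaled to the mean effective library size. An in-frame change need not lower the mRNA, so the level in Ins/Del is no check of its label. All 10 embryonic stem cell markers on the list were counted in every line, with a summed level of 5451 to 5708 CPM (counts scaled to library size) in control, 6749 to 6849 in Ins/Ins, and 6736 to 6885 in Ins/Del. These markers did not all move together. By the edgeR test and threshold given below, 7 rose and 2 fell in Ins/Ins, and 6 rose and 1 fell in Ins/Del. Of all tested genes, 29.0% rose in Ins/Ins and 30.6% rose in Ins/Del.

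The promoter sequences of *Bcl2* and *Bcl2l11* are shown because these were the members other than *Bcl2l10* with the largest estimated changes in both mutants. RefSeq promoter entries on GRCm38 matched 8 of the 10 members, with 14 windows. Each window printed here is the 250 bases before a RefSeq transcript start, in the direction of the gene, outside the gene's GENCODE exons. Capitals mark 3 motifs searched on both strands, CACGTG (E-box), GCGGGA (E2F-like), and TTTGAA (CHR-like), and no motif hits overlapped in these windows.
Bcl2, chr1:106714291-106714540, minus strand: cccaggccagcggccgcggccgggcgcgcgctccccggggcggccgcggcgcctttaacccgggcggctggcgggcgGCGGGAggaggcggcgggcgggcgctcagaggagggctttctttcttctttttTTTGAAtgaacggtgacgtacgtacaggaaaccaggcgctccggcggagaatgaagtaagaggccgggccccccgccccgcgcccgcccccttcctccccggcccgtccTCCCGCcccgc
Bcl2l11, chr2:128125788-128126037, plus strand: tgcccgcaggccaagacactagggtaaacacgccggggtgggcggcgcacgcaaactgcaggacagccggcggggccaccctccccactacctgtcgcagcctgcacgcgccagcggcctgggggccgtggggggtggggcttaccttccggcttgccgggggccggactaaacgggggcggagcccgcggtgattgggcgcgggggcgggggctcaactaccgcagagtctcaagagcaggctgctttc
Bcl2l11, chr2:128127325-128127574, plus strand: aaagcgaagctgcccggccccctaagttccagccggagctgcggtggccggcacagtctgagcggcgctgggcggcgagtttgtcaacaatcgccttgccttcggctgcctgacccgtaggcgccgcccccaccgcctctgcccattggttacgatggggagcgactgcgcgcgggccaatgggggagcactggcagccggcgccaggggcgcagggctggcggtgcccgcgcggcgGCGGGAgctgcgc
The *Bcl2* window held 2 GCGGGA matches and 1 TTTGAA match, the first *Bcl2l11* window held none of the motifs, and the second held 1 GCGGGA match. Among 32851 RefSeq windows of the same length, 16.9% held GCGGGA, 16.0% held TTTGAA, and 6.02% held CACGTG. The windows were rich in CpG dinucleotides, with 36 for *Bcl2* and 24 and 30 for *Bcl2l11*, against a median of 6 and a 90th percentile of 25 over all windows. A match is a description of the letters and not a binding site.

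Apart from *Bcl2l10*, which was far higher in both mutants, the members moved in both directions. *Bak1* and *Bid* rose and *Bcl2*, *Bcl2l11*, and *Bmf* fell in both mutant lines. *Bad* rose and *Bcl2l1* fell past the threshold in Ins/Ins, whereas in Ins/Del the adjusted p was 0.0412 for *Bad* and 0.0445 for *Bcl2l1*. The threshold was an adjusted p of at most 0.01 in edgeR's quasi-likelihood test over 14125 genes. In Ins/Ins, 3 of the 9 members rose, 4 fell, and 2 did not pass, where 58.4% of all tested genes passed, 29.0% higher and 29.4% lower. In Ins/Del, 2 of the 9 members rose, 3 fell, and 4 did not pass, where 62.5% of all tested genes passed, 30.6% higher and 31.9% lower. The family was selected on these comparisons, so nothing is read from the members' share. All 10 members passed the filter on low counts, *Bcl2l10* through its reads in the mutants alone and *Bcl2* with most of its reads in control.

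*Bcl2l10* lies on the plus strand of chromosome 9 from 75347758 to 75351632 (GRCm38), with 1220 exonic bases in GENCODE M21. The control libraries held 1, 0, and 0 reads. The Ins/Ins libraries held 31, 33, and 27 reads, or 26.5, 37.2, and 28.5 normalized counts. The Ins/Del libraries held 29, 44, and 22 reads, or 29.6, 39.7, and 25.5 normalized counts. Every mutant library was above every control library, and the mutants overlapped each other. The means were 0.285 ± 0.494, 30.8 ± 5.70, and 31.6 ± 7.32 normalized counts (SD, n = 3) in control, Ins/Ins, and Ins/Del. Summed over each line, 91 reads in Ins/Ins stood against 1 in control, a depth-adjusted ratio of 92.4 (exact 95% counting interval 16.2 to 3690), and 95 reads in Ins/Del gave a ratio of 98.1 (17.2 to 3916). These intervals describe the counting error of the reads that chose the family and are no test of a difference, and with a single control read the size of the ratio is poorly fixed. At 1.66 CPM (exact 95% interval 1.34 to 2.04) in Ins/Ins and 1.77 (1.43 to 2.16) in Ins/Del, *Bcl2l10* was covered by few reads in the mutants. Its mean over all 9 libraries, the near-empty control libraries included, was higher than that of 10.4% of the tested genes.

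**Figure D1:**
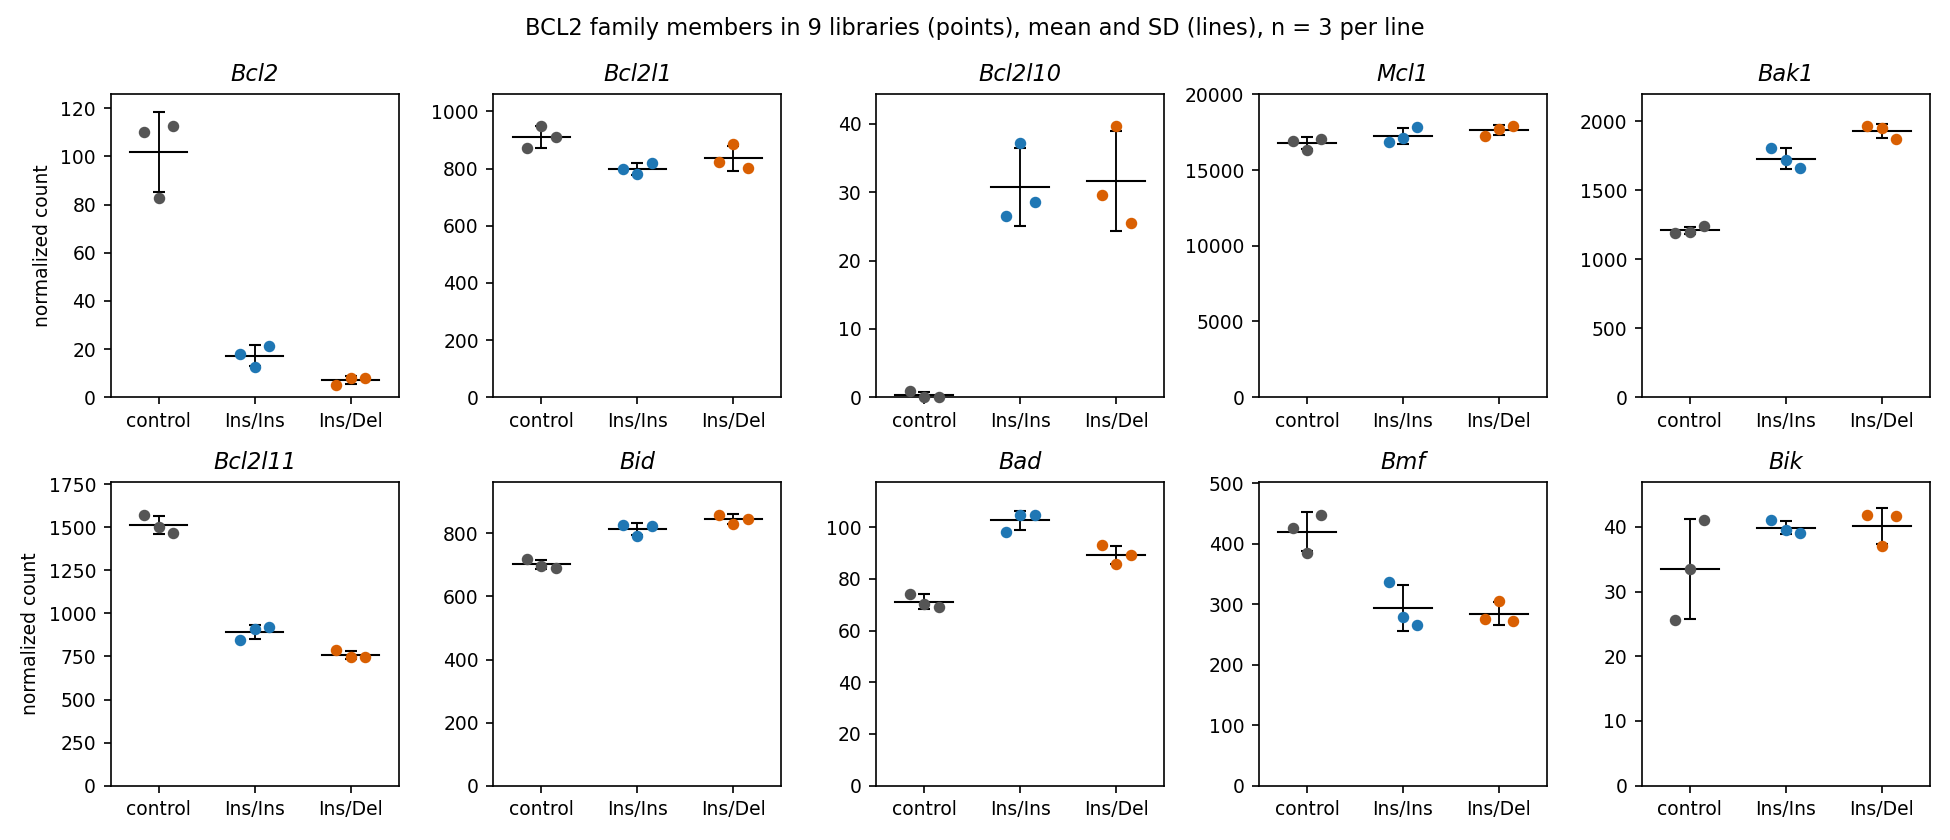
Normalized counts (y axis, linear from 0, a separate scale per gene) of the 10 BCL2 family members in the control, Ins/Ins, and Ins/Del lines. Each point is 1 library, horizontal lines are means, and error bars are SD (n = 3), cut at 0. *Bcl2l10* went from 0 to 0.855 normalized counts in control to 25.5 to 39.7 in the mutants, *Bcl2* fell from 82.8 to 113 to at most 21.1, and *Mcl1* stayed between 16359 and 17913 in all 9 libraries.

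*Bcl2l10* is best known from oocytes, and the list of oocyte genes was therefore read beside it. Of 16 oocyte genes, 5 passed the filter on low counts and 4 of these (*Ooep*, *Dazl*, *Zp3*, and *Padi6*) rose in each mutant. *Padi6* passed that filter only through the mutants, where it was high, so its rise is no separate support. Of all tested genes, 29.0% rose and 29.4% fell in Ins/Ins, and 30.6% rose and 31.9% fell in Ins/Del. The summed levels and counts of markers here are read beside these shares. The summed level of the oocyte list was 97.1 to 102 CPM in control, 176 to 182 in Ins/Ins, and 192 to 197 in Ins/Del. Most of that sum came from *Ooep*, *Ddx4*, and *Dazl*. *Ooep*, a gene of the maternal subcortical complex, had mean levels of 790, 1705, and 1681 normalized counts in control, Ins/Ins, and Ins/Del. *Dazl*, a germ cell RNA-binding protein gene, had 265, 718, and 905, and *Ddx4*, a germ cell helicase gene, had 700, 673, and 726 and did not pass (adjusted p = 0.352 and 0.406). *Zp3*, which encodes a zona pellucida protein, had 36.6, 154, and 183. In contrast, 11 of the 16 genes had means under 10 normalized counts in every line, including *Gdf9*, *Bmp15*, *Figla*, and *Nobox*, which define oocytes. *Padi6* had 1.64, 10.7, and 9.31. No gene of the list was at 0 in all 9 libraries. The 5 markers of the 2-cell-like state, a rare state of embryonic stem cell cultures, rose in both mutants, from a summed level of 43.9 to 45.6 CPM in control to 111 to 114 in Ins/Ins and 160 to 169 in Ins/Del. The summed level of feeder fibroblast markers was 33.1 to 38.0 CPM in control, 15.1 to 16.7 in Ins/Ins, and 20.9 to 22.4 in Ins/Del. That of neural markers was 165 to 168, 72.6 to 79.7, and 90.1 to 93.8. That of primitive endoderm markers was 20.1 to 21.6, 11.3 to 14.7, and 17.3 to 18.8. Single markers of these lists moved in both directions. Of 5 tested feeder fibroblast markers, 1 rose and 3 fell in Ins/Ins, and 2 rose and 3 fell in Ins/Del. Of 4 tested neural markers, 1 rose and 2 fell in each mutant. Of 6 tested primitive endoderm markers, 1 rose and 2 fell in Ins/Ins, but 4 rose and 2 fell in Ins/Del. The part of such cells in the member values was not tested. In these bulk samples a change in the share of cells and a change in RNA per cell cannot be told apart.

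*Bcl2*, the founding pro-survival member, lies on the minus strand of chromosome 1 from 106538178 to 106714274. Its normalized counts were 110, 82.8, and 113 in control, 18.0, 12.4, and 21.1 in Ins/Ins, and 5.11, 8.12, and 8.10 in Ins/Del. The lines did not overlap, with control highest and Ins/Del lowest, and the Ins/Del values rested on only 5, 9, and 7 reads. *Bcl2* was 5.93-fold lower in Ins/Ins (log2 fold change -2.55, SE 0.213, adjusted p = 2.03e-13) and 14.3-fold lower in Ins/Del (log2 fold change -3.82, SE 0.258, adjusted p = 3.39e-16). It was the member with the largest tested change in each mutant. The antisense gene *D630008O14Rik* overlaps 6.09% of its exonic bases and was not analysed here. Whether reads were counted by strand is not given in the sources used here.

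*Mcl1*, which encodes a short-lived pro-survival protein, lies on the plus strand of chromosome 3 from 95658788 to 95663176. It had 16915, 16359, and 17084 normalized counts in control, 16831, 17117, and 17827 in Ins/Ins, and 17261, 17748, and 17913 in Ins/Del. The Ins/Ins libraries overlapped control, and the Ins/Del libraries lay above it by a small margin. The log2 fold changes were 0.04 (95% interval -0.02 to 0.10, adjusted p = 0.196) and 0.07 (95% interval 0.02 to 0.13, adjusted p = 0.0190). The latter passed the threshold in 5 of 15 alternatives, among them DESeq2 (adjusted p = 0.00583) and the fits without control replicate 3 (0.00467) and without Ins/Ins replicate 1 (0.00499). *Bcl2l1*, on the minus strand of chromosome 2 from 152780668 to 152831728, had 872 to 949 normalized counts in control, 780 to 821 in Ins/Ins, and 801 to 886 in Ins/Del. It fell by 0.18 on the log2 scale in Ins/Ins (SE 0.0524, adjusted p = 0.00228), and missed the limit without control replicate 2 (-0.14, adjusted p = 0.0277), Ins/Ins replicate 1 (-0.17, 0.0135), or Ins/Ins replicate 2 (-0.17, 0.0133). In Ins/Del its log2 fold change was -0.12 (95% interval -0.22 to -0.01). *Bcl2l1* gives rise to BCL-XL and to the shorter death-promoting BCL-XS by splicing, and gene counts do not separate them.

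*Bak1*, whose product BAK forms pores in the mitochondrial outer membrane, lies on the minus strand of chromosome 17 from 27019810 to 27029009. It had 1191, 1197, and 1237 normalized counts in control, 1807, 1722, and 1658 in Ins/Ins, and 1965, 1953, and 1867 in Ins/Del. The libraries of the lines did not overlap. *Bak1* rose by a log2 fold change of 0.52 in Ins/Ins (SE 0.0418, adjusted p = 7.10e-14) and 0.68 in Ins/Del (SE 0.0414, adjusted p = 1.63e-17), or 43.1% and 59.6%. *Ggnbp1* on the opposite strand, annotated under 2 gene identifiers, covers 7.35% and 18.2% of the exonic bases of *Bak1*. *Ggnbp1* had 57.3, 72.9, and 86.4 normalized counts in control, Ins/Ins, and Ins/Del. The part of this overlap in the *Bak1* values was not tested. The other major effector, *Bax*, had 2545 ± 81.5, 2971 ± 71.2, and 2823 ± 10.2 normalized counts (SD, n = 3) in the same order, and also rose in both lines (log2 fold change 0.22, adjusted p = 3.17e-07, and 0.15, adjusted p = 0.000187).

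Among the BH3-only members, *Bcl2l11* and *Bmf* fell. *Bcl2l11*, which encodes BIM, a ligand of all main pro-survival members, lies on the plus strand of chromosome 2 from 128126038 to 128162547. It had 1574, 1500, and 1468 normalized counts in control, 847, 911, and 923 in Ins/Ins, and 787, 744, and 745 in Ins/Del. The 3 lines were fully separated. It fell by 41.0% in Ins/Ins (log2 fold change -0.77, SE 0.0470, adjusted p = 2.19e-17) and fell by 49.9% in Ins/Del (log2 fold change -0.998, SE 0.0482, adjusted p = 8.58e-21). BIM isoforms of different potency come from this gene, and the counts do not separate them. *Bmf*, whose product is held by the cytoskeleton through a dynein light chain, lies on the minus strand of chromosome 2 from 118528757 to 118549687. It had 427, 384, and 448 normalized counts in control, 336, 279, and 265 in Ins/Ins, and 275, 306, and 272 in Ins/Del. All mutant libraries were below all control libraries. *Bmf* fell by 0.51 on the log2 scale in Ins/Ins (SE 0.0826, adjusted p = 1.37e-06) and by 0.56 in Ins/Del (SE 0.0834, adjusted p = 2.24e-07).

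*Bid*, which links death receptors to mitochondria once it is cleaved by caspase-8, lies on the minus strand of chromosome 6 from 120891930 to 120916853. It had 690 to 719 normalized counts in control, 791 to 827 in Ins/Ins, and 830 to 860 in Ins/Del. It rose by 16.0% in Ins/Ins (log2 fold change 0.21, adjusted p = 0.000415) and 20.4% in Ins/Del (0.27, adjusted p = 1.92e-05). *Bcl2l13* on the opposite strand overlaps 17.7% of its exonic bases and fell in both lines, from 1541 to 1297 and 1263 normalized counts. *Bad*, which is sequestered by 14-3-3 proteins when phosphorylated, lies on the plus strand of chromosome 19 from 6941861 to 6951899. It had 69.3 to 74.4 normalized counts in control, 98.4 to 105 in Ins/Ins, and 85.7 to 93.0 in Ins/Del. Its libraries did not overlap between lines. The log2 fold change was 0.52 in Ins/Ins (95% interval 0.24 to 0.79, adjusted p = 0.00106, and 0.0107 with DESeq2) and 0.32 in Ins/Del (95% interval 0.03 to 0.60, adjusted p = 0.0412). *Gpr137* on the opposite strand overlaps 20.5% of the exonic bases of *Bad*, and had 105, 73.4, and 73.8 normalized counts in control, Ins/Ins, and Ins/Del. *Bik*, a BH3-only gene of the endoplasmic reticulum, lies on the plus strand of chromosome 15 from 83526862 to 83544634. It had 25.6 to 41.1 normalized counts in control, 39.1 to 41.1 in Ins/Ins, and 37.0 to 41.9 in Ins/Del, and the lines overlapped. Its log2 fold change was 0.28 in each mutant (95% intervals -0.16 to 0.72, adjusted p = 0.255 and 0.246). At 100 to 120 reads per line, these intervals leave room for a small fall or a moderate rise.

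In each mutant, 7 of the 9 members had no overlap between mutant and control libraries, where 69.1% of all tested genes had none in Ins/Ins and 72.8% in Ins/Del. The median absolute log2 fold change of the 9 members was 0.51 in Ins/Ins and 0.32 in Ins/Del, against 0.30 and 0.34 over all tested genes. The signed medians were 0.04 and 0.07 for the members and 0.00 and -0.01 for all genes.

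**Figure D2:**
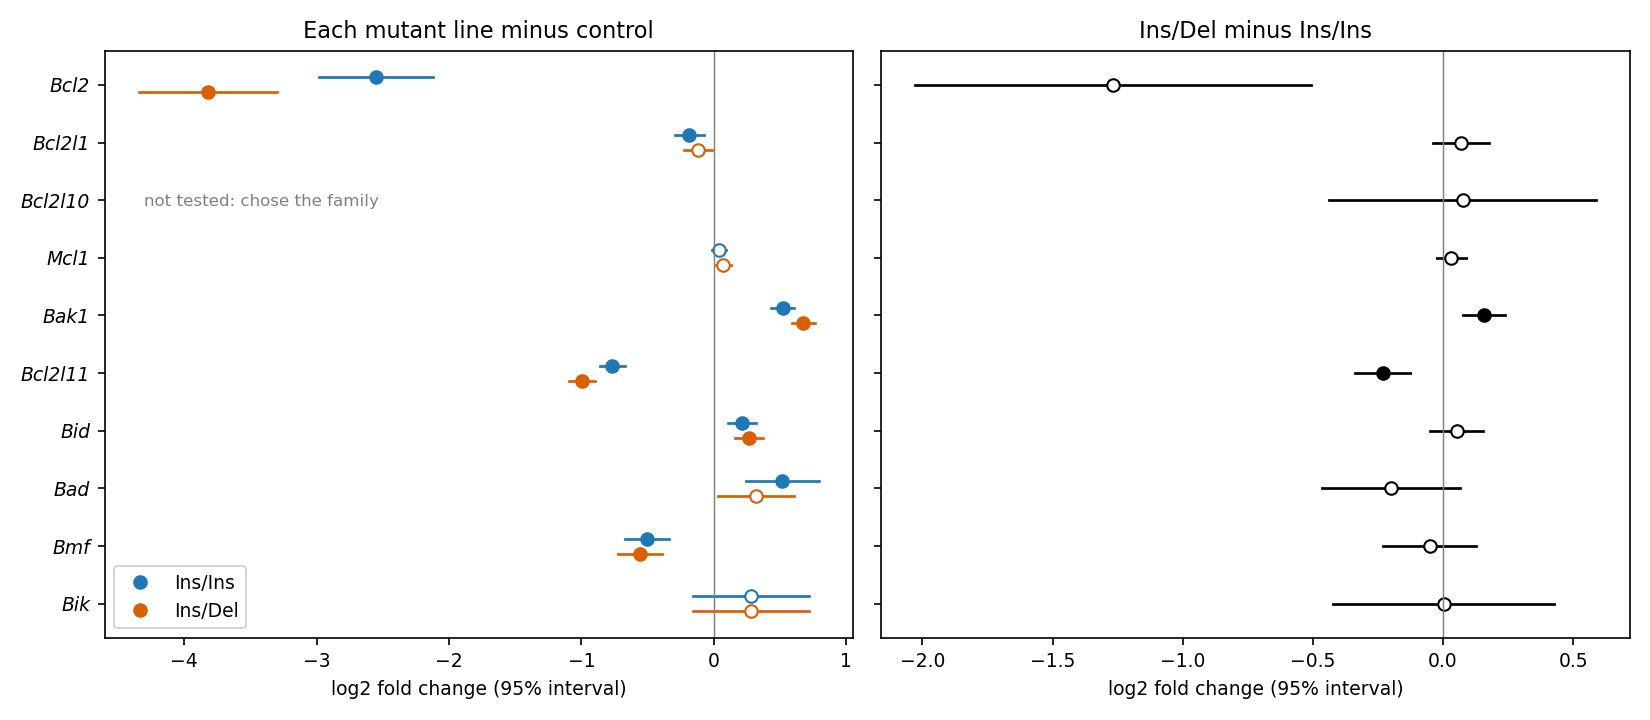
Log2 fold changes (x axis) of the BCL2 family members with 95% intervals from the fit over all 9 libraries, in each mutant line against control (left, blue Ins/Ins and orange Ins/Del) and in Ins/Del against Ins/Ins (right). Filled points passed an adjusted p of 0.01, open points did not, and *Bcl2l10* has no tested value on the left. *Bcl2* lies farthest below 0 on the left, and only *Bak1* (0.16) and *Bcl2l11* (-0.23) are filled on the right.

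The comparison of the mutants with each other was not used to choose the family, and all 10 members were tested in it. *Bak1* was higher and *Bcl2l11* was lower in Ins/Del than in Ins/Ins, and the other 8 members did not pass, where 10.8% of all tested genes passed. *Bak1* differed by 0.16 on the log2 scale (SE 0.0397, adjusted p = 0.00405), a difference that kept a similar size but missed the limit without Ins/Ins replicate 2 (0.15, adjusted p = 0.0172), Ins/Ins replicate 3 (0.13, 0.0458), Ins/Del replicate 1 (0.14, 0.0277), or Ins/Del replicate 2 (0.15, 0.0283). *Bcl2l11* differed by -0.23 (SE 0.0516, adjusted p = 0.00109), a difference that kept a similar size but missed the limit without Ins/Ins replicate 3 (-0.21, adjusted p = 0.0111) or Ins/Del replicate 2 (-0.22, 0.0118). *Bcl2* had the largest estimate, -1.27 (SE 0.375, 95% interval -2.03 to -0.51), with an adjusted p of 0.0138. Over 15 alternatives this p ranged from 0.00801 (all genes with at least 1 read tested) to 0.0741 (without Ins/Del replicate 1), and it passed the limit in 2 of them, the other being the fit without Ins/Ins replicate 2 (0.00987). The estimate itself ranged from -1.43 to -1.08. For *Bcl2l10* the difference was 0.08 (SE 0.253, 95% interval -0.44 to 0.59, adjusted p = 0.882), an interval that leaves room for a moderate difference either way. The median absolute difference over the 10 members was 0.07, against 0.11 over all tested genes.

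To compare levels between genes, reads were divided by exonic length and by the effective library size and are given as RPKM, a level per kilobase of exon. In control the order of mean RPKM was *Mcl1* (269), *Bak1* (27.5), *Bcl2l1* (10.9), *Bid* (10.8), *Bcl2l11* (10.3), *Bmf* (4.38), *Bad* (1.53), *Bik* (1.15), *Bcl2* (0.610), and *Bcl2l10* (0.0128). The libraries of *Bcl2l1*, *Bid*, and *Bcl2l11* overlapped in control, so these neighbours were not separated. In Ins/Del the order was *Mcl1* (283), *Bak1* (43.9), *Bid* (13.1), *Bcl2l1* (9.57 to 10.6 over its libraries), *Bcl2l11* (5.18), *Bmf* (2.97), *Bad* (1.91), *Bcl2l10* (1.42), *Bik* (1.39), and *Bcl2* (0.0426). *Bcl2l10* and *Bik* overlapped there, and both lay above *Bcl2* in every library. Ins/Ins gave 1.38 RPKM for *Bcl2l10* and 0.103 for *Bcl2*.

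Summed by role, the pro-survival members had 281 ± 5.86 RPKM in control, 288 ± 8.40 in Ins/Ins, and 294 ± 5.53 in Ins/Del (SD, n = 3), ratios to control of 1.03 and 1.05. *Mcl1* made up 95.9%, 96.2%, and 96.1% of that sum. *Bcl2l10* made up 0.0045%, 0.481%, and 0.482%, and *Bcl2* 0.217%, 0.0356%, and 0.0144%. The effector *Bak1* had 27.5 ± 0.575, 39.4 ± 1.71, and 43.9 ± 1.21 RPKM, ratios of 1.43 and 1.60. The BH3-only members summed to 28.2 ± 0.555, 25.3 ± 0.323, and 24.5 ± 0.404 RPKM, ratios of 0.896 and 0.868, and the mutant libraries lay below the control libraries. The sums cover the 10 members only and leave out other family genes, such as *Bax* and *Bcl2l2*. These sums were not tested, and 3 libraries against 3 cannot go below an exact two-sided permutation p of 0.1.

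**Figure D3:**
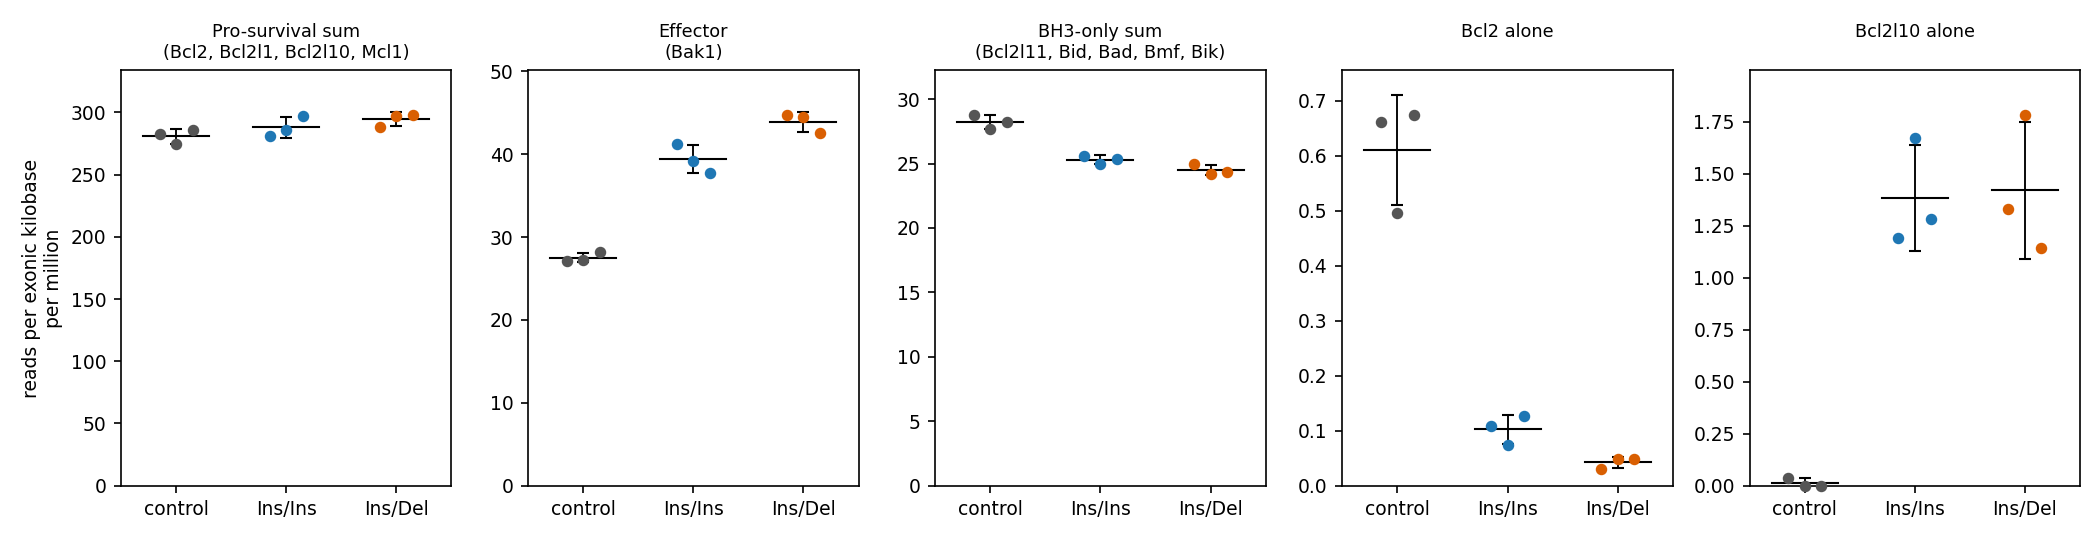
RPKM levels (y axes, linear from 0, a separate scale per panel) of the pro-survival sum, the effector *Bak1*, the BH3-only sum, *Bcl2* alone, and *Bcl2l10* alone in the control, Ins/Ins, and Ins/Del lines. Points are libraries, horizontal lines are means, and error bars are SD (n = 3). The pro-survival sums lie between 274 and 298, whereas *Bcl2l10* and *Bcl2*, both under 2 on this scale, move in opposite directions.

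Around the members, 57 further genes of the apoptotic pathway were read from 4 lists, of which 52 were tested. The 4 mouse *Bcl2a1* copies (*Bcl2a1a*, *Bcl2a1b*, *Bcl2a1c*, and *Bcl2a1d*) had no read in any library, and *Fas* did not pass the filter on low counts. Over the 4 lists, 18 genes rose, 18 fell, and 16 did not pass in Ins/Ins, and 22 rose, 21 fell, and 9 did not pass in Ins/Del. Of all tested genes, 29.0% rose and 29.4% fell in Ins/Ins, and 30.6% rose and 31.9% fell in Ins/Del. The median absolute log2 fold change of the 52 genes was 0.26 in Ins/Ins and 0.33 in Ins/Del, beside 0.30 and 0.34 over all tested genes. Genes named below because a count was small were picked after their values were seen.

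Of 12 other BCL2 family genes tested, 2 rose in Ins/Ins (*Bax* and *Hrk*) and 7 fell. In Ins/Del, 3 rose (*Bax*, *Hrk*, and *Bcl2l15*) and 7 fell. Over all tested genes, 29.0% were called higher and 29.4% lower in Ins/Ins, and 30.6% higher and 31.9% lower in Ins/Del. *Bcl2l15* had 3.14 to 8.55 normalized counts in control and passed the filter on low counts only through the mutants. There it was high, so its rise is no separate support. *Bcl2l2*, which encodes the pro-survival protein BCL-W, had 265 ± 14.8 normalized counts in control, 127 ± 13.9 in Ins/Ins, and 123 ± 9.24 in Ins/Del (SD, n = 3). The log2 fold changes were -1.07 (adjusted p = 7.27e-12) and -1.11 (adjusted p = 2.86e-12). *Bnip3l*, a mitophagy receptor also called NIX, went from 1672 ± 30.4 to 712 ± 34.5 and 633 ± 62.5, with log2 fold changes of -1.23 and -1.40. Its paralog *Bnip3* also fell, by 0.17 in Ins/Ins and by 0.51 in Ins/Del on the log2 scale. Together with *Bcl2*, *Bcl2l2* was a further pro-survival gene that was lower in both lines.

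Of 19 genes that act downstream of the mitochondrion, 10 rose, 3 fell, and 6 did not pass in Ins/Ins. In Ins/Del, 10 rose, 4 fell, and 5 did not pass. Of all tested genes, 29.0% rose and 29.4% fell in Ins/Ins, and 30.6% rose and 31.9% fell in Ins/Del. *Casp6*, an executioner caspase gene, had 152 ± 18.8, 72.6 ± 1.52, and 74.7 ± 11.5 normalized counts (SD, n = 3) in control, Ins/Ins, and Ins/Del. Its log2 fold changes were -1.06 (adjusted p = 1.00e-08) and -1.03 (adjusted p = 1.55e-08). The abundant genes of the list rose modestly, with log2 fold changes of 0.27 and 0.21 for the channel gene *Vdac1*, 0.16 and 0.19 for *Vdac2*, whose product retains BAK at mitochondria, and 0.16 and 0.22 for *Parp1*, a caspase substrate.

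Of 7 tested genes of the death receptor route that leads to BID cleavage, 4 fell in Ins/Ins (*Tnfrsf10b*, *Casp8*, *Cflar*, and *Ripk1*), and the other 3 did not pass. In Ins/Del, 5 fell, *Fadd* being the further one, and 1 rose (*Tnfrsf1a*). The shares over all tested genes were 29.0% higher and 29.4% lower in Ins/Ins, and 30.6% higher and 31.9% lower in Ins/Del. *Tnfrsf10b*, the mouse TRAIL receptor gene, had 904 ± 56.5, 446 ± 20.4, and 364 ± 40.6 normalized counts (SD, n = 3) in control, Ins/Ins, and Ins/Del, with log2 fold changes of -1.02 and -1.30. *Cflar*, which encodes the caspase-8 inhibitor FLIP, had 367 ± 35.0, 155 ± 11.1, and 130 ± 16.8, with log2 fold changes of -1.25 and -1.50. *Ripk1* fell by 0.35 and by 0.25 on the log2 scale.

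Of 14 genes whose products regulate members, 6 rose and 4 fell in Ins/Ins (*Trp53*, *Huwe1*, *Dynll1*, and *Sfn*). In Ins/Del, 8 rose and 5 fell, *Fbxw7* being the further one that fell. Among all tested genes, 29.0% rose and 29.4% fell in Ins/Ins, and 30.6% rose and 31.9% fell in Ins/Del. *Sfn*, the 14-3-3 sigma gene, had the lowest estimate of the 52 genes in both lines, with 1549 ± 91.5, 543 ± 14.7, and 503 ± 10.9 normalized counts (SD, n = 3) and log2 fold changes of -1.51 (adjusted p = 2.04e-25) and -1.62 (adjusted p = 2.62e-26). *Ywhae*, the abundant 14-3-3 epsilon gene, rose by a log2 fold change of 0.23 in each line. *Huwe1*, which encodes a ubiquitin ligase of MCL1, fell by 0.11 and by 0.12. *Usp9x*, which encodes a deubiquitinase of MCL1, had a log2 fold change of 0.05 in Ins/Ins (adjusted p = 0.144) and rose by 0.23 in Ins/Del (adjusted p = 1.17e-08). Between the mutants, 6 of the 52 genes were higher and 4 were lower in Ins/Del, where 10.8% of all tested genes passed.

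**Figure D4:**
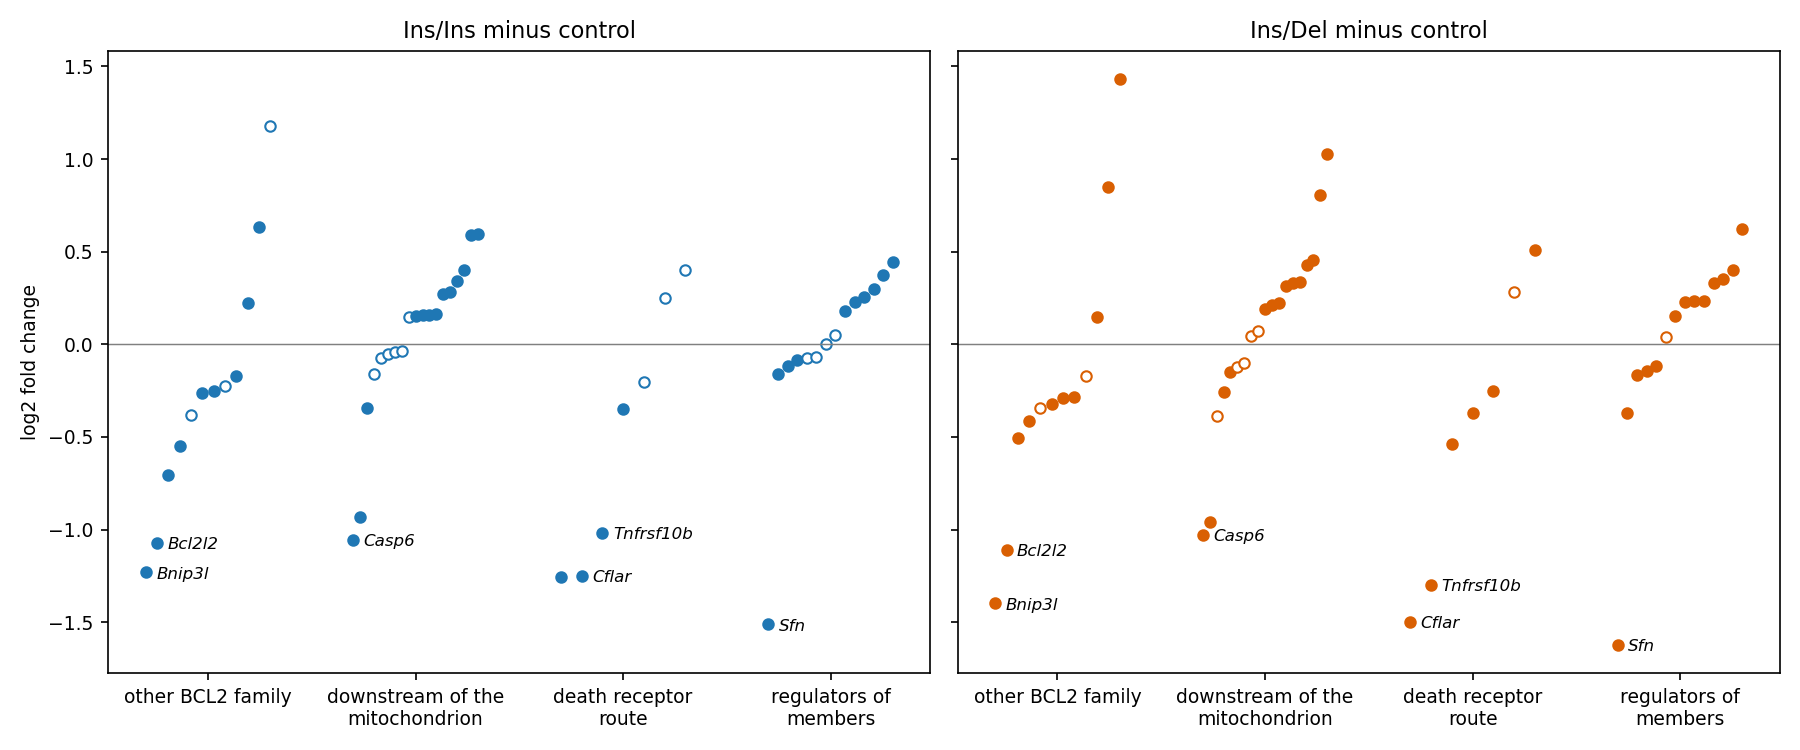
Log2 fold changes (y axis) of the 52 tested genes of the 4 pathway lists (x axis) in Ins/Ins (left, blue) and Ins/Del (right, orange) against control. Each point is 1 gene, ordered by its value within a list, filled where the adjusted p was at most 0.01. The labelled genes are the 6 that passed with changes above 2-fold in both lines, and all lie below 0.

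The 6 pathway genes that passed with a change above 2-fold in both lines (*Bcl2l2*, *Bnip3l*, *Casp6*, *Tnfrsf10b*, *Cflar*, and *Sfn*) were all lower. *Bcl2l2*, *Bnip3l*, and *Tnfrsf10b* lie on chromosome 14, with starts at 54883377, 66985239, and 69767472. On that chromosome 100 of 461 tested genes (21.7%) fell by more than 2-fold in both lines with a mean above 20 normalized counts, against 845 of 13866 tested genes with a position (6.09%). The median log2 fold change on chromosome 14 was -0.58 in Ins/Ins and -0.60 in Ins/Del, against 0.00 and -0.01 over those 13866 genes. *Vdac2*, which rose, also lies on chromosome 14, with its start at 21825238. None of the 10 members does. The part of the chromosome in these 3 genes' values was not tested.

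The genes next to *Bcl2l10* on chromosome 9 were read in the same way, 5 protein-coding genes on each side. In Ins/Ins, 7 of the 10 were called higher and in Ins/Del 6 were, and the others did not pass. Over all tested genes 29.0% and 30.6% were called higher. *Gnb5*, a G protein subunit gene that ends 1882 bases before *Bcl2l10* on the same strand, had 68.2, 108, and 107 normalized counts in control, Ins/Ins, and Ins/Del, with log2 fold changes of 0.67 (adjusted p = 0.000101) and 0.65 (adjusted p = 0.000159). *Mapk6*, which lies 17430 bases beyond *Bcl2l10* on the opposite strand, had 4152, 4019, and 4125, with log2 fold changes of -0.05 (adjusted p = 0.183) and -0.01 (adjusted p = 0.781). The highest estimate among the 10 neighbours was that of *Tmod3* in Ins/Del, a log2 fold change of 0.69. The part of the region in the values of *Bcl2l10* was not tested.

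The pattern of *Bcl2l10* over the 9 libraries was compared with that of 12711 tested genes with a mean above 20 normalized counts. The measure was the root mean square difference of log2 CPM (prior count 2) after each gene was centred on its own mean. With almost no control reads, the pattern of *Bcl2l10* on this scale depends on the prior count, and it rests on the values that chose the family, so the order of the genes is a description only. The nearest were *Rhox13* (0.256), *Tuba3a* (0.261), *Tex101* (0.266), *Mapt* (0.267), and *Gm364* (0.286). *Rhox13*, a reproductive homeobox gene, had 39.5, 561, and 750 normalized counts in control, Ins/Ins, and Ins/Del. In the same order, *Tuba3a* had 299, 3808, and 4741, *Mapt* had 137, 1833, and 2063, and *Gm364* had 45.6, 651, and 921. *Tex101*, a germ cell surface protein gene, had 5.47, 78.1, and 95.2. With 8, 5, and 4 control reads, *Tex101* passed the filter on low counts only through the mutants. Unlike *Bcl2l10*, each of the 5 had reads in every control library. By Pearson correlation the 5 nearest were *H2-Eb1*, *Ciao2a*, *Mdm2*, *Ehd1*, and *Anp32a*, and 0 genes were shared with the first set. A total of 2458 genes had a correlation above 0.9 with *Bcl2l10* over these 9 libraries, which share 3 lines, so the likeness is a description of the difference between control and mutants.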

How the data were processed

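RNA-seq was measured in 9 libraries of E14 embryonic stem cells, 3 per line, grouped by their genotype labels. Per the labels and the study's methods, the authors made mRNA libraries with a Kapa mRNA HyperPrep kit, aligned reads with STAR 2.7.3 to mm10, and used HTSeq to count them per gene. The deposited files hold raw counts, 1 per gene symbol. The annotation and the strand setting of the counting are not given in the sources used here.

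From the counts, edgeR 4.0.16 (R 4.3.3) computed TMM factors, applied filterByExpr, and fitted glmQLFit and glmQLFTest to all 9 libraries. P-values were adjusted by the Benjamini-Hochberg method over 14125 genes, with a limit of 0.01. Gene positions, exonic lengths, and overlaps come from GENCODE M21. The fits were tested on simulated data. Members, gene lists, and tests were chosen with earlier results of these data known. Named genes were all members, pathway genes past the limit with over 2-fold changes in both mutants and a mean above 20 normalized counts, the 3 most abundant of each list, *Rbbp4*, the 5 neighbours on each side of *Bcl2l10*, and the 5 genes of nearest pattern. Alternatives were DESeq2 1.42.0, other scalings, filters, and limits, a replicate block, and leaving out each library. The values of 1 pathway gene are not reported here.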

Additional observations from a re-analysis of the deposited data

Results flagged for a closer look

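Of the 10 members, 2 differed between the mutant lines by a test of the difference itself, where 10.8% of all tested genes did. *Bak1* was higher in Ins/Del than in Ins/Ins by 0.16 on the log2 scale, with 3 of 3 Ins/Del libraries above every Ins/Ins library. *Bcl2l11* differed by -0.23, with 3 of 3 Ins/Del libraries below every Ins/Ins library. Such separation was not particular to these genes. *Bcl2*, *Bid*, and *Bad* were also separated between the mutants and did not pass (adjusted p = 0.0138, 0.525, and 0.316 in the edgeR test). The share of all tested genes separated in this way was not counted. For *Bak1* and *Bcl2l11* the difference had the direction of the change against control. The *Bak1* call was lost in 4 and the *Bcl2l11* call in 2 of the fits that left out 1 library, with log2 differences of 0.13 to 0.15 for *Bak1* and -0.21 and -0.22 for *Bcl2l11* in those fits. The lines differ in clone as well as in allele, and these cannot be told apart.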

How the results depend on the processing

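Over 420 combinations of a member, a comparison, and an alternative, 403 kept their side of the threshold, 17 changed it, and none of the called values reversed direction. With the replicate block, 7, 5, and 2 members were called in Ins/Ins, in Ins/Del, and between the mutants, the same counts as without it. Of all tested genes, 58.2%, 62.3%, and 10.6% were called with that block. Same-numbered libraries did not deviate together (correlations of -0.03 to 0.06), so the numbers were not taken as pairs. At an adjusted p of at most 0.05, 8 members were called in Ins/Del, where 71.2% of all tested genes were, and 16 pathway genes between the mutants, where 19.0% of all tested genes were. A test against a 2-fold change called 1 member (*Bcl2*) in each mutant, 2 pathway genes in Ins/Ins (*Bnip3l* and *Sfn*), and 4 in Ins/Del (these and *Cflar* and *Tnfrsf10b*). That 2-fold test called 8.75% of all tested genes in Ins/Ins and 11.1% in Ins/Del. Between the mutants it called 0 members and 0 pathway genes, with 0 and 0 at an unadjusted p under 0.05. It called 0 of all 14125 tested genes there, so these zeros are not particular to the family or its pathway. DESeq2's test against no change called 2 members and 7 pathway genes between the mutants, where it called 8.83% of all genes it tested. When single libraries were left out, 0 to 2 members and 6 to 11 pathway genes were called between the mutants. Those fits called 6.89% to 11.5% of all tested genes. The counts of 0 members came without Ins/Ins replicate 3 and without Ins/Del replicate 2, with 3 members at an unadjusted p under 0.05 in each case. Without division by length, the ratio of the BH3-only sum to control was 0.782 in Ins/Ins and 0.736 in Ins/Del, since the long exons of *Bcl2l11* then weigh more. Depth limits *Bcl2l10*, *Bcl2*, and *Bik*, whose lines held as few as 1, 21, and 100 reads.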
